A study of Mus musculus with 67 samples.

Results

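The 3 E protein genes Tcf12, Tcf3 and Tcf4 and the 2 Id genes Id2 and Id3 were followed through T cells sorted from the brains of mice on a standard diet (SD) or on a high-fat high-sugar (HFHS) diet. The 5 genes were taken by symbol from 24461 genes measured in the second of 2 RNA sequencing experiments, and all 5 were present in both. That experiment, which carries every test below, holds 59 of the 67 libraries in 16 groups of 2 to 4. Activated conventional T cells (Tconv) gave 16 libraries from the hypothalamus and 13 from the rest of the brain, and regulatory T cells (Tregs) gave 16 and 14, and each of these sets held both strains, Balb/c and C57Bl/6J, on SD and on HFHS diet.

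In the second experiment, activated Tconv were CD4+ cells sorted as activated by surface markers, with high CD44 and no CD25 or Foxp3GFP, a reporter that makes cells expressing the Treg factor Foxp3 fluoresce green, while Tregs were labelled by name alone. Balb/c mice were female and C57Bl/6J mice male, so strain and sex cannot be told apart. The HFHS diet began at 6 weeks of age, and its length in this experiment is not given in the sources used here. A library held the cells of several mice, usually 5, and 19 of 21 pool labels supplied more than 1 library, so that libraries of different cell types and tissues stem in part from the same mice. The labels are irregular in places, since 67_66 and 47_25 run backwards and 15_21 spans 16_20 of the same strain and diet, and each was taken as it stands. The pilot experiment holds 8 libraries of hypothalamic cells, 1 for each condition. These are CD4+ CD44- naive T cells and Tregs of 9 pooled female Foxp3GFP Balb/c mice after 16 weeks of SD or HFHS diet, and CD4+ and CD25 high cells of 7 pooled female ob/ob mice, which lack leptin, or of 7 pooled female Bl6 mice as wild type (WT).

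E proteins are basic helix-loop-helix transcription factors that bind in pairs to short DNA elements called E-boxes. Tcf12 encodes HEB, Tcf3 encodes E2A and Tcf4 encodes E2-2. Id proteins share the helix-loop-helix part but lack the basic part that touches DNA, so that an E protein bound to an Id protein is kept off its sites. In T cells, E proteins direct thymic development and help to hold cells in a resting state. Id2 is best known from effector T cells, and Id3 from naive, memory, follicular helper and regulatory T cells.

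Promoter sequence is given for Id2 and Id3, which moved in opposite directions between the cell types, and for Tcf12, the E protein gene with the highest median level per length in activated Tconv of the rest of the brain. Each sequence holds the 250 bases before a RefSeq start site in GRCm38.p6, 5′ to 3′ on the strand of the gene, with every E-box of the general form CANNTG in capitals. The form reads alike on both strands and includes CAGCTG, a form bound by E proteins. Id2 lies on the minus strand, with its window at chr12:25096093-25096342, Id3 on the plus strand, with chr4:136143572-136143821, and one of 3 Tcf12 starts, inside the annotated span of the gene, on the minus strand, with chr9:72111820-72112069.
Id2: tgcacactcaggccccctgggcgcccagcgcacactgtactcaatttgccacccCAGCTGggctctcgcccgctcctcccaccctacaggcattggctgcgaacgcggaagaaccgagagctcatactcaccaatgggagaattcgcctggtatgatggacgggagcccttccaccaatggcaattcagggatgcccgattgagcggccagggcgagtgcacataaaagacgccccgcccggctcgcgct
Id3: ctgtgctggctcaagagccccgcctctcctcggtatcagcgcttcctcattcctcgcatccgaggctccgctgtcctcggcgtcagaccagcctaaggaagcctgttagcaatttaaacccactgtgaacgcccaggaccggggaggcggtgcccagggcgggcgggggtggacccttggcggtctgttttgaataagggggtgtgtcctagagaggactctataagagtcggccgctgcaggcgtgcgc
Tcf12: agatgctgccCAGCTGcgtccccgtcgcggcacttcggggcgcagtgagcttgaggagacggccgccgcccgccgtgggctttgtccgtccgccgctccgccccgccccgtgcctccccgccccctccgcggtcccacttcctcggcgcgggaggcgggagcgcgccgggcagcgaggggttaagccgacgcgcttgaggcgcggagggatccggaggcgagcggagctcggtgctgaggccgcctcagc
The Id2 window held 1 E-box, CAGCTG, beginning 196 bases before the start. The Id3 window held none. This Tcf12 window held CAGCTG 240 bases before the start. Another Tcf12 window, at chr9:72111202-72111451, held CAAGTG at 149 bases, and the last, at chr9:71896097-71896346, held no E-box. Of 32851 promoter windows of this length, 66.22% held CANNTG and 13% held CAGCTG, so these matches are common, and they describe letters rather than bound sites. By the RefSeq annotation of this build, the genes span chr12:25093799-25096092 (Id2), chr4:136143822-136145392 (Id3), chr9:71844252-72111893 (Tcf12) and chr10:80409541-80433976 (Tcf3).

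Depth was 1724149 to 38482277 estimated counts on genes per library. Tregs of the hypothalamus were the most sparsely covered set, with a median of 5804.5 genes detected against 10102 in Tregs of the rest of the brain, 10895 in hypothalamic Tconv and 15123 in Tconv of the rest of the brain. Foxp3 had a median of 188.6 CPM (counts scaled to a common library size, with totals corrected by TMM) in hypothalamic Tregs and 372.1 CPM in Tregs of the rest of the brain, against 3.968 and 6.157 CPM in the Tconv of these tissues. However, 4 hypothalamic Treg libraries held less than 10 CPM of Foxp3 and by this gene went against their label. Of these, the Balb/c SD library of pool 32_36 held 4641 CPM of the microglial gene P2ry12, and the C57Bl/6J SD library of pool 11_15 held 2109 CPM of the endothelial gene Cldn5 and 37.69 CPM of the T-cell gene Cd3e. The Treg gene Ikzf2, at a median of 265 CPM in hypothalamic Tregs, held 1564 CPM in pool 32_36 and 26.82 CPM in pool 11_15. In the C57Bl/6J libraries of pool 06_10 on HFHS diet and 43_47 on SD it held 2470 and 706.5 CPM. That of pool 06_10 also held 2894 CPM of Cd3e, so the other marker did not always go with Foxp3. Members in hypothalamic Tregs are given with and without these 4 libraries. With or without them, edgeR called none of the members it could test between tissues (Tcf12, Tcf3, Id2 and Id3), strains or diets (Id2 and Id3, and Tcf12 in the smaller set alone) in these Tregs. Fewer cells of a type and less RNA per cell cannot be told apart in such pooled cells.

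The clearest difference lay between cell types and concerned the Id genes. Id2 was lower and Id3 higher in Tregs than in activated Tconv, and this held for both tissues, while none of the 3 E protein genes passed the test by edgeR. In the hypothalamus the call of Id3 was lost in several subsets of libraries, as given below. In the rest of the brain, 2 of 5 members were called at an adjusted p-value under 0.05 (edgeR's quasi-likelihood test, Benjamini-Hochberg adjustment over all genes tested), where 8.9% of 9855 genes were called. In the hypothalamus 2 of 4 tested members were called, against 1.42% of 8337 genes; Tcf4 had too few counts to be tested there.

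Id2 was among the most abundant transcripts of activated Tconv. Its median was 3822 CPM in hypothalamic Tconv (2313 to 5327 over 16 libraries) and 3957 CPM in Tconv of the rest of the brain (2398 to 7840 over 13). In Tregs of the rest of the brain the median was 462.7 CPM (140.3 to 1184 over 14), so that the highest Treg library lay below the lowest Tconv library. Hypothalamic Tregs had a median of 231.1 CPM and spread from 0.066 to 1809 CPM over 16 libraries, also without overlap with Tconv. The 1809 CPM came from a library low in Foxp3, and without the 4 such libraries the median was 201.3 CPM and the highest value 954 CPM. The log2 fold change of Tregs against Tconv was -3.34 ± 0.27 (SE) in the rest of the brain, with an adjusted p-value of 2.2e-10, and -3.24 ± 0.58 in the hypothalamus, with 0.00046. These values correspond to a 10.1-fold and a 9.45-fold lower level. Where Tregs and Tconv shared a pool of mice, Id2 was lower in Tregs in 12 of 12 pools of the rest of the brain and in 15 of 15 of the hypothalamus.

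**Figure D1:**
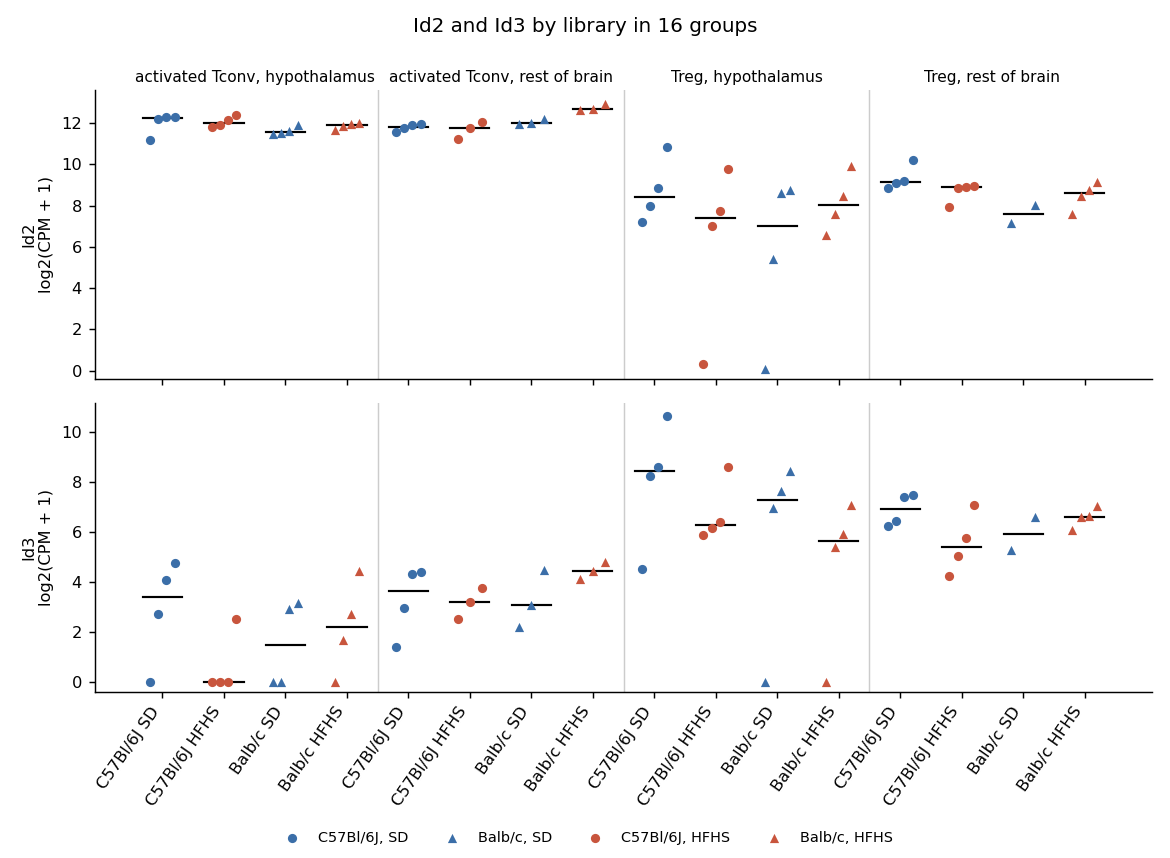
Id2 and Id3 in every library of the second experiment, as log2(TMM-scaled CPM + 1), by cell type, tissue, strain and diet; each point is 1 library (circles C57Bl/6J, triangles Balb/c, blue SD, red HFHS diet) and each line the median of a group. Id2 lies at 2313 CPM or more in every Tconv library and at 1809 CPM or less in every Treg library, and Id3 shows the opposite order with overlap.

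Id3 was scarce in activated Tconv. In the rest of the brain its median was 12.42 CPM in Tconv (1.59 to 26.84) and 90.42 CPM in Tregs (18.04 to 177), and the groups overlapped only between 18.04 and 26.84 CPM. In the hypothalamus it was 3.455 CPM in Tconv (0 to 26.34), where 7 of 16 libraries held none, and 104 CPM in Tregs (0 to 1600). The groups overlapped there, since 2 hypothalamic Treg libraries held no Id3. The 1600 CPM came from the library low in Foxp3 with the endothelial gene, and without the 4 libraries low in Foxp3 the median of Id3 was 65.14 CPM (0 to 350.1). The log2 fold change was 2.80 ± 0.44 in the rest of the brain, with an adjusted p-value of 6.1e-05, and 5.02 ± 1.25 in the hypothalamus, with 0.025. Id3 was higher in Tregs in 12 of 12 shared pools of the rest of the brain, and in 13 of 15 of the hypothalamus with no Id3 in either library of the other two. Without the 4 libraries low in Foxp3, an analysis added after the data were seen, the hypothalamic value for Id3 was 4.06 with an adjusted p-value of 0.072, and that for Id2 was -3.83 with 9.1e-06. In the hypothalamus, the call of Id3 was thus lost and that of Id2 kept without these 4 libraries. The hypothalamic call of Id3 was also lost in Balb/c mice alone, at 4.26 with an adjusted p-value of 0.48. It was lost on SD alone, at 5.68 with 0.066, and on HFHS diet alone, at 4.97 with 0.46. C57Bl/6J mice alone kept it, at 6.40 with 0.024.

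With Id2 lower and Id3 higher in Tregs, the balance of the 2 inhibitors differed between cell types. For levels between genes, TPM values, which account for transcript length, were compared within a library. In activated Tconv the median log2 ratio of Id2 to Id3 was 9.74 in hypothalamic cells and 7.87 in those of the rest of the brain, and it was above 0 in 16 of 16 and 13 of 13 libraries. In Tregs of the rest of the brain it was 2.04 and above 0 in 14 of 14 libraries, and in hypothalamic Tregs 0.77 and above 0 in 11 of 16, or 0.96 and 9 of 12 without the 4 libraries low in Foxp3. Among all genes of a library ranked by TPM, Id2 stood at a median rank of 20 in hypothalamic Tconv and 25 in Tconv of the rest of the brain, but at 305.5 and 734 in Tregs of the rest of the brain and of the hypothalamus. Id3 had median ranks of 1108 in Tregs of the rest of the brain and 4386 in Tconv there. No test was made on these ratios and ranks.

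**Figure D2:**
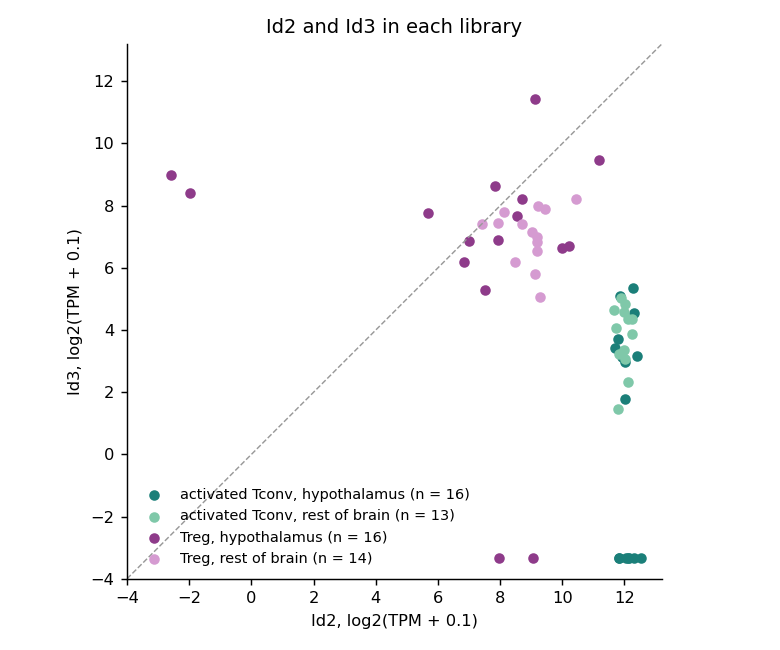
Id2 on the horizontal and Id3 on the vertical axis, both as log2(TPM + 0.1), 1 point per library of the second experiment, coloured by cell type and tissue, with a dashed line of equal levels. Tconv libraries gather at high Id2 and low Id3, while Treg libraries spread toward lower Id2 and higher Id3.

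Tcf12, the gene of HEB, was present in every Tconv library, at 1.88 CPM or more. Its median was 41.69 CPM in Tconv of the rest of the brain (13.13 to 82.71) and 27.6 CPM in hypothalamic Tconv (1.88 to 75.47). In Tregs it was patchy: the median was 10.25 CPM in the rest of the brain (0 to 114.9), with 12 of 14 libraries above 3 counts, and 0 CPM in the hypothalamus (0 to 977), with 7 of 16 above 3 counts. All 4 hypothalamic Treg libraries of Balb/c mice on SD held no Tcf12, whereas 2 of 4 on HFHS diet held 216.7 and 220 CPM and the other two none. In C57Bl/6J mice the libraries held 0, 0, 91.08 and 107.6 CPM on SD and 0, 2.717, 47.29 and 977 CPM on HFHS diet. The interaction of diet and strain for Tcf12 in these Tregs was not called. By edgeR it was 11.55 ± 4.76, with an unadjusted p-value of 0.023 and an adjusted one of 0.26. On log2(TPM + 1) it was 2.44 with an adjusted p-value of 0.81. The 977 CPM stood in a library low in Foxp3, that of pool 06_10, and so did the 91.08 CPM. Tregs against Tconv gave a log2 fold change of -0.96 ± 0.81 in the rest of the brain, with an adjusted p-value of 0.60, and of 0.75 ± 1.49 in the hypothalamus, with 1.0. The sign of the hypothalamic value went against the pairs: Tcf12 was lower in Tregs in 10 of 15 shared pools there and in 9 of 12 in the rest of the brain, and with the pool as replicate block it was -7.72, with an adjusted p-value of 0.054. The 95% interval of the hypothalamic difference, from -2.16 to 3.67, leaves a difference of either sign. Without the 4 libraries low in Foxp3 the value was 0.51 with an adjusted p-value of 0.98, and 5 of 12 libraries held more than 3 counts.

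Tcf3, the gene of E2A, was the one E protein gene that edgeR called between tissues or strains. Its median was 43.19 CPM in hypothalamic Tconv (25.53 to 99.04), 24.9 CPM in Tconv of the rest of the brain (12.62 to 77.21) and 29.92 CPM in Tregs of the rest of the brain (0.061 to 120.8). In hypothalamic Tregs 13 of 16 libraries held none, and the 3 others held 23.86, 32.02 and 121.9 CPM. Tregs against Tconv gave 0.46 ± 0.56 in the rest of the brain, with an adjusted p-value of 0.75, and -2.47 ± 1.47 in the hypothalamus, with 0.73. With the pool as replicate block the hypothalamic value became -10.98 with an adjusted p-value of 0.0002, so that 3 members were called there. Tcf3 was also called by limma-voom, at -7.35 with 0.00039, and by limma on log2(TPM + 1), at -3.33 with 3.6e-06. A call is common on log2(TPM + 1), where 5077 of 8337 genes were called, 5043 of them lower in Tregs. The median over all genes was -1.71 there. How many genes limma-voom or the block called in this comparison is not given. Without the 4 libraries low in Foxp3, edgeR gave -3.23 for Tcf3 with 0.60 and 2 of 12 Treg libraries held more than 3 counts of it. Tcf3 was lower in Tregs in 14 of 15 shared hypothalamic pools but in 7 of 12 pools of the rest of the brain. The number of genes detected in hypothalamic Tregs was the lowest of the 4 sets, and its part in the missing Tcf3 was not tested.

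Tcf4, the gene of E2-2 and best known from plasmacytoid dendritic cells and B cells, had the lowest median of the E protein genes outside hypothalamic Tregs, where Tcf12, Tcf3 and Tcf4 all had a median of 0. It lies at chr18:69343429-69687967 of GRCm38.p6. Its median was 5.086 CPM in Tconv of the rest of the brain (0.361 to 14.37), where all 13 libraries held more than 3 counts, and 0.05 CPM in hypothalamic Tconv (0 to 9.151), where 5 of 16 did. Tregs of the rest of the brain had a median of 0.108 CPM (0 to 49.64), and 3 of 16 hypothalamic Treg libraries held more than 3 counts. The highest value, 380.8 CPM, came from the library low in Foxp3 with the endothelial gene. Of 5 markers of plasmacytoid dendritic cells, 4 had a median of 0 in both sets of Tregs and 3 in both sets of Tconv. In the 3 hypothalamic Treg libraries with Tcf4 over 3 counts, at 380.8, 93.2 and 2.61 CPM, the marker Siglech, which microglia also express, held 112.2, 0 and 907.9 CPM, and Bst2 held 349.6, 298.8 and 603.4 CPM, while Klk1, Cox6a2 and Ccr9 were at 0. Their part in the Tcf4 values was not tested. Without the 4 libraries low in Foxp3, 1 of 12 held more than 3 counts of Tcf4. Tregs against Tconv of the rest of the brain gave 0.09 ± 1.46 with an adjusted p-value of 0.99, an interval from -2.78 to 2.95 that includes large differences in either direction.

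**Figure D3:**
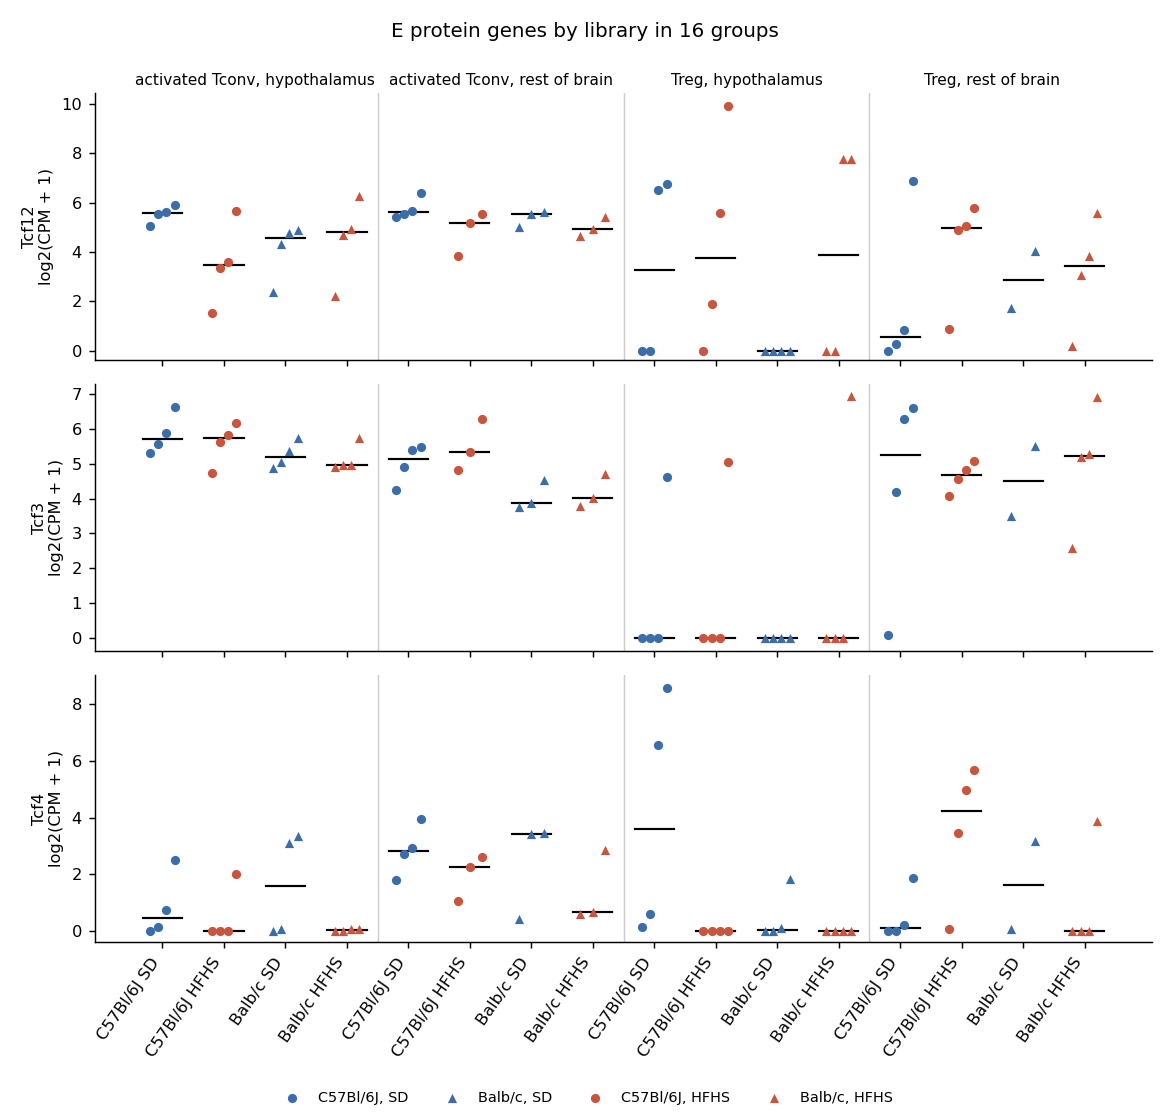
Tcf12, Tcf3 and Tcf4 in every library of the second experiment, as log2(TMM-scaled CPM + 1), by cell type, tissue, strain and diet; each point is 1 library (circles C57Bl/6J, triangles Balb/c, blue SD, red HFHS diet) and each line the median of a group. Hypothalamic Tregs show many libraries at 0 beside single high values, while the Tconv libraries of Tcf12 and Tcf3 are all above 1 CPM.

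As a sum in TPM, the 3 E protein genes lay below the 2 Id genes in all 59 libraries. In CPM, without length scaling, they lay above them in 2 of 16 hypothalamic Treg libraries. The median log2 ratio of E proteins to Id factors was -7.46 in hypothalamic Tconv, -7.72 in Tconv of the rest of the brain, -4.81 in Tregs of the rest of the brain and -7.58 in hypothalamic Tregs. The last median lies in a gap: 8 of the 16 libraries were at -10.22 or lower, where the pseudocount of 0.1 TPM bears on the value, and 8 at -4.93 or higher, and without the 4 libraries low in Foxp3 these were 6 and 6. In hypothalamic Tregs the E protein sum had a median of 9.14 TPM, and 4 of 16 libraries held none of the 3. Which E protein gene was highest differed between sets. Tcf3 was the highest in 15 of 16 libraries of hypothalamic Tconv and in 9 of 14 of Tregs of the rest of the brain, and Tcf12 in 8 of 13 of Tconv of the rest of the brain. In hypothalamic Tregs Tcf12 was the highest in 6 libraries, Tcf4 in 5 and Tcf3 in 1, but only 3 of the 5 held more than 3 counts of Tcf4. Without the 4 libraries low in Foxp3 these numbers were 5, 2 and 1, with 1 of the 2 over 3 counts. RNA levels do not give protein levels, so the ratios describe transcripts only.

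**Figure D4:**
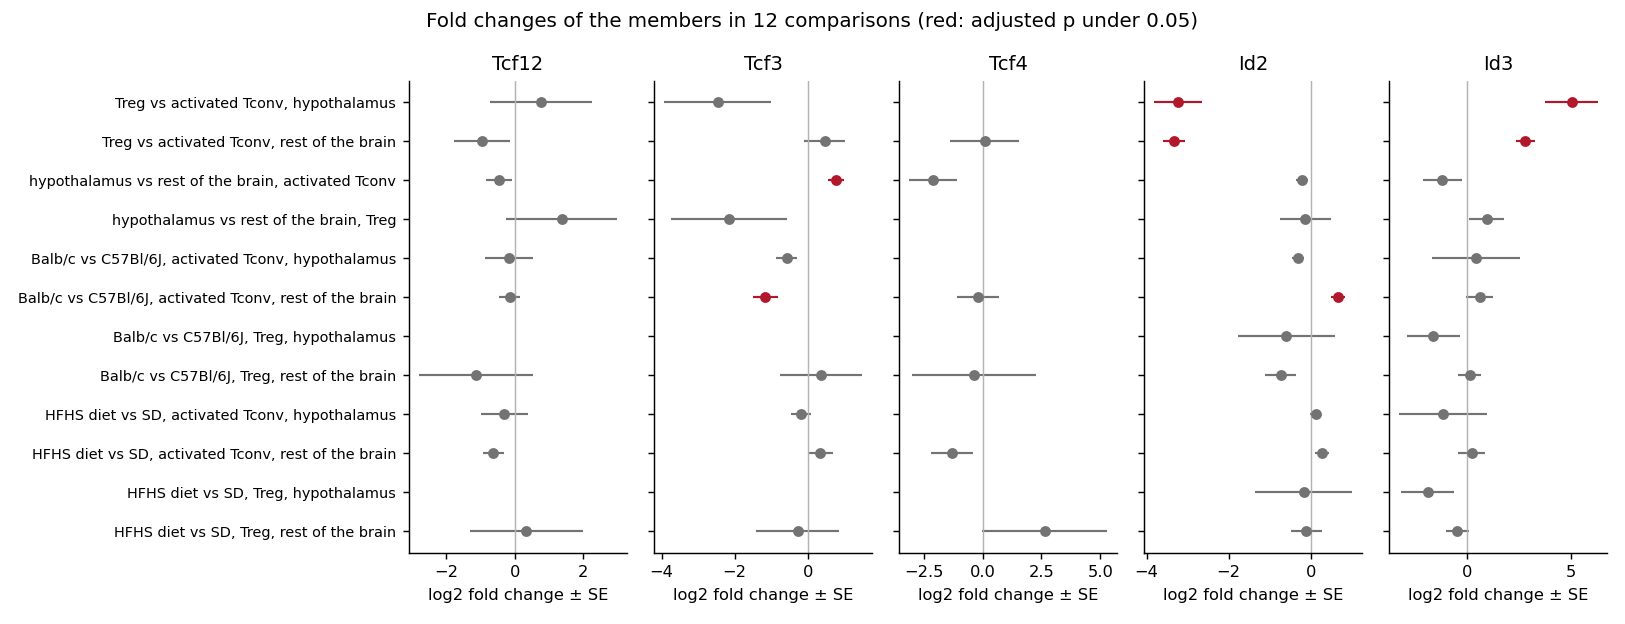
Log2 fold changes of the 5 members from edgeR, with bars of 1 SE, in the 12 comparisons of cell type, tissue, strain and diet; red points passed an adjusted p-value of 0.05 and a missing point was not tested. Id2 and Id3 pass in both comparisons of cell types, Tcf3 between tissues and between strains and Id2 between strains in Tconv, and the 4 diet comparisons hold no red point.

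Between tissues, the question was whether hypothalamic cells differ from those of the rest of the brain. In activated Tconv 1 of 5 members was called, Tcf3, against 12.2% of 10281 genes. Tcf3 was higher in the hypothalamus by 0.78 ± 0.23 on the log2 scale, with an adjusted p-value of 0.023, which is a 1.71-fold difference; the groups overlapped widely, and Tcf3 was higher in 8 of 9 pools that gave both tissues. With the pool as replicate block the value was 1.09, but the adjusted p-value was 0.076 and no member was called. Balb/c mice alone gave 1.07 with 0.020, and C57Bl/6J mice alone 0.49 with 1.0. Tcf4 was lower in the hypothalamus in 9 of 9 pools, but the value of -2.10 ± 1.02 missed the threshold, with an adjusted p-value of 0.19, while limma-voom called it at -3.20 with 0.020. Markers of other cells moved with it: in Tconv of the rest of the brain P2ry12 was over 3 counts in 8 of 13 libraries and the B-cell gene Cd79a, Siglech and the microglial gene Csf1r in 5 each, against 0, 2, 0 and 0 of 16 in hypothalamic Tconv, and their part in the Tcf4 difference was not tested. Tcf12 gave -0.46 with 0.52, Id3 -1.20 with 0.49 and Id2 -0.21 with 0.40. For Id3 the replicate block gave -5.15 with 0.13, and limma-voom called it, at -4.61 with 0.0012. In Tregs edgeR called none of 4 tested members, against 0.0276% of 7247 genes (2 genes by edgeR, 217 at an unadjusted p-value under 0.05). Tcf3 was called there by limma-voom, at -6.56 with 0.0046, and by limma on log2(TPM + 1), at -2.66 with 0.0049. On log2(TPM + 1), 1813 of 7247 genes were called, 1811 of them lower in the hypothalamus, and the median over all genes was -1.43. How many genes limma-voom called there is not given. By edgeR, the test of whether the difference between cell types varied with tissue called none of the 5 members.

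Between strains, Id2 and Tcf3 were called in activated Tconv of the rest of the brain, 2 of 5 members, where 26.2% of 10770 genes were called, so that a call is common there. Tcf3 was lower in Balb/c mice. The 6 Balb/c libraries held 12.62, 13.7 and 22.31 CPM on SD and 12.87, 15.35 and 24.9 CPM on HFHS diet, while the 7 C57Bl/6J libraries held 17.83 to 43.45 CPM on SD and 27.24 to 77.21 CPM on HFHS diet. The log2 fold change of Balb/c against C57Bl/6J mice was -1.16 ± 0.35 with an adjusted p-value of 0.020, and without the C57Bl/6J HFHS library of pool 33_37 it was -0.93 with 0.076. In hypothalamic Tconv it was -0.58 with 0.54, and none of 4 tested members was called there, against 1.89% of 9807 genes.

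Id2 in Tconv of the rest of the brain depended on how libraries were scaled. In CPM the Balb/c libraries held 3920, 4156 and 4611 on SD and 6410, 6573 and 7840 on HFHS diet, and the C57Bl/6J libraries held 3016, 3441, 3780 and 3957 on SD and 2398, 3440 and 4198 on HFHS diet. The 3 Balb/c HFHS libraries thus stood above every other Tconv library. The log2 fold change between strains was 0.68 ± 0.17, with an adjusted p-value of 0.0061. However, the TMM factors of the 6 Balb/c libraries were 0.791 to 0.988 and those of the 7 C57Bl/6J libraries 1.004 to 1.11. With library totals alone the value was 0.41 with an adjusted p-value of 0.021, and with limma on log2(TPM + 1) it was 0.03 with 0.83. The median over all genes moved with it, from -0.09 to -0.36 and -0.57. In TPM the HFHS libraries of Balb/c mice held 4073, 4418 and 4879 and those of C57Bl/6J mice 3354, 4158 and 4820, with wide overlap. Relative to the median over all genes, Id2 was higher in Balb/c mice under each scaling, while its TPM did not pass the test. Tcf3 kept its direction and its call under these scalings, with -1.44 and -1.55.

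Id2 also differed between strains according to cell type and tissue. In the rest of the brain, the log2 fold change of Tregs against Tconv was lower in Balb/c than in C57Bl/6J mice, with a difference of -1.57 ± 0.40 and an adjusted p-value of 0.014 for this interaction, where 5.78% of 11501 genes were called. In Tconv, the log2 fold change of Balb/c against C57Bl/6J mice was lower in the hypothalamus than in the rest of the brain, with a difference of -0.98 ± 0.22, an adjusted p-value of 0.0030 and 11.3% of 11468 genes called; this interaction was added after the data were seen. In Balb/c mice alone Id2 was lower in hypothalamic Tconv than in those of the rest of the brain, by -0.71 with an adjusted p-value of 8.9e-05, and in C57Bl/6J mice it was 0.29 with 1.0. Here too the scaling mattered. On log2(TPM + 1) the interactions were -0.73 with an adjusted p-value of 0.21 and -0.32 with 0.11, and with library totals they were -1.19 with 0.070 and -0.70 with 0.011. By edgeR no other member was called in the 11 interactions tested, while log2(TPM + 1) also called Tcf3 for cell type and tissue, at -3.58 with 0.00039. That fit called 2776 of 10845 genes.

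The HFHS diet, the main contrast of the study, gave no call by edgeR among the members tested, which were 4 in hypothalamic Tconv (all but Tcf4), 5 in Tconv of the rest of the brain, 2 in hypothalamic Tregs (Id2 and Id3) and 5 in Tregs of the rest of the brain. The background was 0% in all 4 comparisons: 0 of 9807 genes in hypothalamic Tconv, 0 of 10770 in Tconv of the rest of the brain, 0 of 4393 in hypothalamic Tregs and 0 of 9227 in Tregs of the rest of the brain. At an unadjusted p-value under 0.05 these comparisons held 337, 501, 53 and 325 genes, DESeq2 called 5, 7, 64 and 104 genes, and limma-voom 0, 1, 1 and 7, none of them a member. Tcf12 gave a log2 fold change of -0.64 ± 0.31 for HFHS diet against SD in Tconv of the rest of the brain, with an unadjusted p-value of 0.056 and an adjusted one of 1.0, and of -0.31 ± 0.69 in hypothalamic Tconv, also with 1.0. In the rest of the brain the Tcf12 libraries held 24.03 to 45.34 CPM on HFHS diet apart from 1 at 13.13 CPM, and 31.53 to 82.71 CPM on SD, with overlap. Id2 gave 0.28 ± 0.17 in Tconv of the rest of the brain and 0.13 ± 0.14 in hypothalamic Tconv, both with an adjusted p-value of 1.0. In Tconv of the rest of the brain the Balb/c libraries did not overlap between diets, as given above, and Balb/c mice alone gave 0.69 ± 0.12, with an unadjusted p-value of 0.00013 and an adjusted one of 0.074, while C57Bl/6J mice alone gave -0.087. The interaction of diet and strain for Id2 there was 0.86 ± 0.24, with an unadjusted p-value of 0.0022 and an adjusted one of 0.084. It moved with the scaling, to 0.50 with an adjusted p-value of 0.27 for library totals and 0.19 with 0.60 on log2(TPM + 1), and in TPM the Balb/c libraries overlapped between diets, with 3270, 3584 and 4404 on SD. Strains in Tregs gave no call either, with 2 members tested and 0.0228% of 4393 genes called in the hypothalamus and 5 tested and 0.39% of 9227 called in the rest of the brain.

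Over the 16 groups ordered by their median CPM, neighbouring groups overlapped in all 15 steps for Tcf12, Tcf4 and Id3, in 14 of 15 for Tcf3 and in 13 of 15 for Id2. For most groups the order therefore does not exceed the spread between libraries. Isoforms were read only as Salmon's estimates. Tcf12 has 5 RefSeq names in the files, and NM_001253864 took 52.7% of the pooled Tcf12 reads in Tconv of the rest of the brain and 20.7% in hypothalamic Tconv, whereas NM_001253862 took 14.8% and 41.9%. NM_001253864 held over 3 counts in 9 of 13 and 7 of 16 of these libraries, and NM_001253862 in 8 and 10. How far single libraries carry the pooled shares was not tested. Id2 and Id3 have 1 name each.

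The genes that varied most like each member were found by Spearman's rho over the 59 libraries, among 8996 genes. As the 59 libraries include 4 sets of cells with unequal depth, these are descriptions and carry no test. Id2 was most like Gzmk (0.839), Ms4a4b (0.836) and Med10 (0.828), of which Gzmk encodes a granzyme of cytotoxic and memory T cells. Id3 was most like Bmyc (0.626), Sdhaf1 (0.590) and Tnfrsf4 (0.590), the last of which encodes the costimulatory receptor OX40 of activated and regulatory T cells. Tcf12 was most like Il3ra (0.650), Ubp1 (0.645) and Pggt1b (0.593), Tcf3 like Sephs2 (0.784), Zscan22 (0.738) and Mob3a (0.737), and Tcf4, which itself had over 10 counts in fewer libraries than the 30 asked of the other genes, like Anapc16 (0.589), Trpm7 (0.573) and Rfwd3 (0.545). Between members, rho was -0.608 for Id2 and Id3, -0.522 for Tcf3 and Id3, and 0.067 for Tcf12 and Tcf3.

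Genes around the E protein and Id axis were followed as 6 lists. Between Tregs and Tconv of the rest of the brain, 8.9% of all genes were called and the median over all genes was -0.08 on the log2 scale. Of 10 effector genes that go with Id2, 3 were lower in Tregs, among them the chemokine gene Ccl5 by -4.21 and the cytokine gene Ifng by -4.15, but 2 were higher, Klrg1 by 4.09 and Batf by 0.91, and the median was -0.93. Klrg1 marks terminally differentiated effector cells and also some tissue Tregs. Of 9 memory and follicular genes that go with Id3, 3 were higher, Cd27 by 1.72, Ccr7 by 1.15 and S1pr1 by 0.77, while Tcf7, the gene of the memory factor TCF-1, was lower by -1.31, and the median was 0.096.

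Of 12 inducers of Id genes, 11 were tested and 3 were higher in Tregs of the rest of the brain, Nr4a1 by 1.87 and Egr1 by 1.17, both induced by T-cell receptor signals, and the IL-2 signalling gene Stat5b by 1.76. Of 17 genes under E protein control in T cells, 12 were tested and 2 were higher, Foxp3, itself a sorting marker, by 5.88 and the T-cell receptor inhibitor gene Cd5 by 0.86. Of 26 other Id and basic helix-loop-helix genes, 14 were tested and 2 were higher, Usf1 by 1.14 and the hypoxia factor gene Hif1a by 1.07. None of 7 tested cofactors of E proteins was called. In the hypothalamus, where 1.42% of 8337 genes were called, Foxp3 was higher by 5.55, as 1 of 9 tested genes under E protein control, and 2 of 8 tested effector genes were lower, the Th1 factor gene Tbx21 by -8.68 and the granzyme gene Gzmb by -8.22. The other lists had no call there, among 13, 7, 10 and 9 tested genes. Without the 4 libraries low in Foxp3, Tbx21 gave -7.58 and Gzmb -7.36, and both stayed called. Foxp3 itself chose those libraries.

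In activated Tconv between tissues, where 12.2% of all genes were called, 3 of 14 tested Id and basic helix-loop-helix genes were higher in the hypothalamus, Tfeb by 1.57, Usf1 by 1.20 and Bhlhe40 by 0.72. Cofactors split, with Ldb1, a partner of LIM proteins, higher by 0.76 and Lmo4 lower by -1.80, out of 7. Among 12 genes under E protein control the cytokine signal inhibitors Socs3 and Socs1 were higher by 0.97 and 0.53, and the IL-7 receptor gene Il7r was lower by -0.51. Of 12 inducers Stat3 was higher by 0.78 and Egr3 lower by -4.95, and of 10 effector genes Gzmb and Cxcr3 were higher by 1.69 and 0.41 and Ccl5 was lower by -0.78. None of the 9 memory and follicular genes was called. Between strains in Tconv of the rest of the brain, where 26.2% of all genes were called, 3 of 14 tested Id and basic helix-loop-helix genes were lower in Balb/c mice, Ahr, Bhlhe40 and Usf1 (-2.47, -1.44 and -1.10). Of 12 genes under E protein control Socs3, Cd4 and Cd5 were lower (-1.54, -1.01 and -0.90) and Il7r was higher (0.74), and of 12 inducers Stat3, Nr4a1 and Egr1 were lower (-1.59, -1.52 and -1.17) and Smad4 was higher (0.84). Among 10 effector genes Tbx21 and Cxcr3 were lower (-1.46 and -0.58) and Ccl5 higher (1.08), among 8 cofactors Ldb1 was lower (-1.11) and Kat2b higher (1.34), and among 9 memory and follicular genes Tcf7 was lower (-0.59) and Slamf6 higher (0.95). The scaling that moved Id2 between strains moved the median over all genes here as well.

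In the pilot experiment each condition gave 1 library, so that no replicate error can be given and intervals cover counting error only. Counts on genes ranged from 99925 to 5334511. The library labelled as naive T cells on SD went against its label, with 72.69 CPM of Foxp3 (counts scaled by library total) against 1.38 CPM in the naive HFHS library and 75.34 CPM in Tregs on SD. Between the libraries labelled as naive T cells, Tcf12 had 715 counts on HFHS diet and 60 on SD, which is a 20.3-fold higher normalised read count (exact 95% interval 15.6 to 26.9). Id2 was 2.41-fold higher (2.30 to 2.53), from 4322 and 3055 counts, and Tcf4 stood at 0.316 of its SD level (0.180 to 0.526). Id3 had 0 counts on HFHS diet and 309 on SD, at least 60.5-fold lower. Past 2-fold lay 61.9% of 6686 genes. The part of the cells behind the Foxp3 counts in these differences was not tested. In Tregs, Tcf12 had 352 counts on HFHS diet and 0 on SD, at least 97.7-fold higher, Id3 132 and 0, at least 36.6-fold higher, and Id2 771 and 762, a ratio of 0.842 (0.761 to 0.932); 80.5% of 5445 genes were past 2-fold.

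In CD4+ cells of ob/ob mice, Tcf12 had 163 counts against 0 in WT mice, at least 6.97-fold higher, and Id2 10322 against 0, at least 441-fold higher, where 85.7% of 6440 genes were past 2-fold and the WT library held 220336 counts in all. The WT library also held 299.5 CPM of Foxp3 against 27.79 CPM in ob/ob mice, and the part of this in the differences was not tested. In CD25 high cells Tcf12 had 32 counts against 0, at least 167-fold higher, Tcf3 34 against 0, at least 177-fold higher, and Id3 6 against 0, at least 31.2-fold higher, while Id2 gave a ratio of 1.07 (0.895 to 1.28), with 79.1% of 5978 genes past 2-fold. Tcf4 had 7 counts against 2001, a ratio of 0.0546 (0.0219 to 0.113). The WT library of CD25 high cells held 13 counts of Foxp3, 95 of Cd3e and 0 of Cd4 among 5334511, and so went against its label. In the second experiment, none of the 3 diet comparisons that tested Tcf12 called it. In hypothalamic Tregs, whose Tcf12 values in both strains are given above, it had too few counts for the test over both strains. With no filter on low counts Tcf12 gave 7.28 there, with an unadjusted p-value of 0.044 and an adjusted one of 0.21, C57Bl/6J mice alone gave 2.13 ± 2.64 with 1.0, and the set without the 4 libraries low in Foxp3 gave 5.90 ± 10.1 with 1.0. Tcf4 went the other way without that filter, at -10.49 with an unadjusted p-value of 0.0020 and an adjusted one of 0.21. The hypothalamic Treg libraries on HFHS diet held no Tcf4. Those on SD held 0 to 380.8 CPM, the highest in a library low in Foxp3. By edgeR, the interaction of diet and tissue for Tcf4 in Tregs was -13.79, with an unadjusted p-value of 0.0024 and an adjusted one of 0.12.

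**Figure D5:**
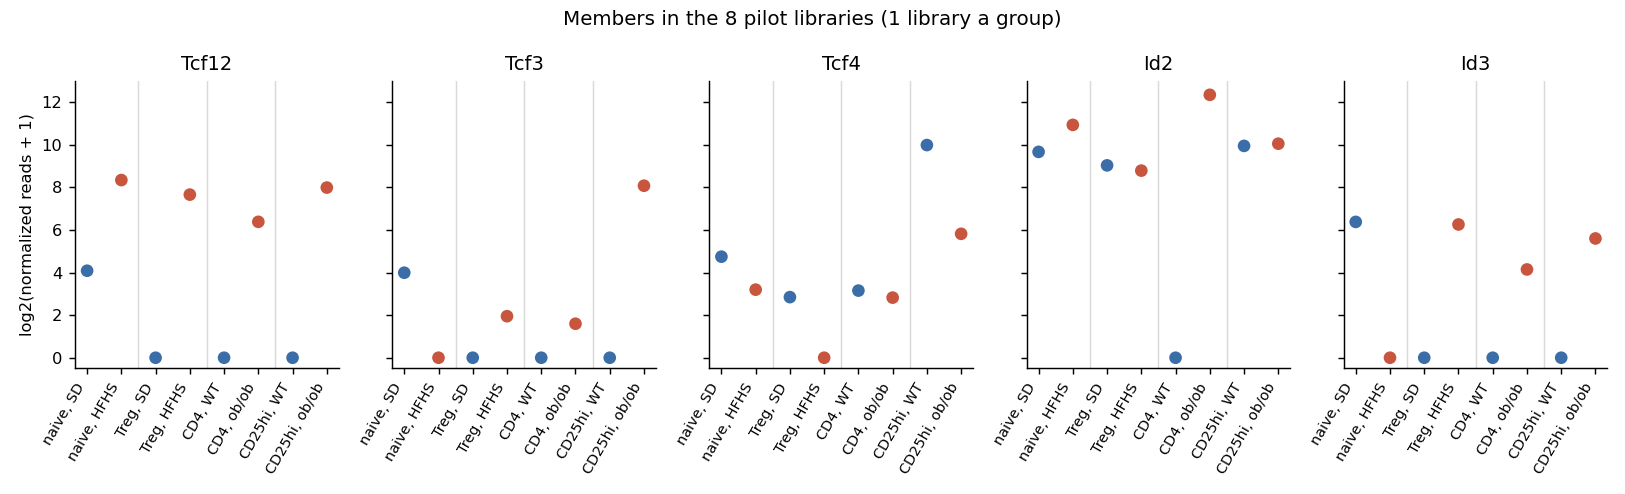
Members in the 8 pilot libraries as log2(normalised reads + 1), 1 point per library, with SD or WT in blue and HFHS diet or ob/ob in red. Tcf12 is at 0 in 3 of the 4 SD or WT libraries, and Id2 is high in most libraries but at 0 in CD4+ cells of WT mice.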

How the data were processed

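In the pilot, single-end reads were mapped by the authors to mm10 with BWA, and HTSeq gave the raw counts deposited for 24421 symbols. For the second experiment, the authors ran Salmon through nf-core/rnaseq, and the deposited values are estimated counts and TPM for 35034 RefSeq names. Salmon scales TPM by transcript length and library total, while the estimated counts are not normalised between libraries. Here 99.475% of the names were matched to genes of GRCm38.p6, and counts and TPM were summed over the names of each of 24461 genes.

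Rounded counts were tested with edgeR 4.0.16 in R 4.3.3 (TMM, quasi-likelihood test, genes kept where more than 10 counts were reached in a number of libraries no smaller than the smaller group, Benjamini-Hochberg adjustment, threshold 0.05), with strain and diet as terms. Errors are standard errors and intervals are 1.96 times these. DESeq2 1.42.0, limma 3.58.1, other scalings, no filter, single strains or diets, each library left out and the pool as replicate block were alternatives. The analysis was tested on simulated data. Libraries of 1 pool come from the same mice by label, which is where the pairing comes from. Their deviations from the group means correlated at -0.051 to 0.057, with no pool above 0.1. Nothing further shows how far libraries of a group are independent, so p-values measure the spread between pools.

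Pilot counts were scaled by size factors (median of ratios) over the 8 libraries. Genes above 20 normalised reads in either library counted as past a fold of 2 or 0.5, with exact 95% Clopper-Pearson intervals and a floor of 3 counts per library. Named genes are the members, up to 4 called genes with the largest change in each list and comparison described, and the 3 genes most like each member. The members and lists were chosen with earlier results of these data known. A gene of the memory and follicular list is not reported here and was left out of its counts. Promoters come from RefSeq. Isoforms and overlapping genes were not separated further. Figures were drawn with matplotlib 3.10.9.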

Additional observations from a re-analysis of the deposited data

Results flagged for a closer look

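Single libraries stood apart from the other 3 of their group in 15 of 60 checks of a member in a group of 4 libraries, by the gap to the nearest library relative to the range of the group. Chance alone flags about 1 in 20 such groups, and for members at 0 in most libraries any single value stands apart. All values are TMM-scaled CPM.

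For Tcf12, a library of Tregs of the rest of the brain from C57Bl/6J mice on SD held 114.9 against 0 to 0.789 in the others, and a library of hypothalamic Tregs from C57Bl/6J mice on HFHS diet, one of those low in Foxp3, held 977 against 0 to 47.29. The latter library also held 384.7 of Id3, against 57.97 to 83.46.

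For Tcf3, single libraries of hypothalamic Tregs held 32.02 in C57Bl/6J mice on HFHS diet, 23.86 in C57Bl/6J mice on SD and 121.9 in Balb/c mice on HFHS diet, where the other libraries of each group held 0. A library of hypothalamic Tconv from Balb/c mice on HFHS diet held 52.48 against 29.32 to 30.43.

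For Tcf4, single libraries held 2.612 and 13.74 in Tregs of the rest of the brain (C57Bl/6J mice on SD and Balb/c mice on HFHS diet), 2.61 in hypothalamic Tregs of Balb/c mice on SD, and 3.029 and 4.609 in hypothalamic Tconv of C57Bl/6J mice on HFHS diet and on SD, where the other libraries held at most 0.689.

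Low values stood apart for Id2. A library of Tregs of the rest of the brain from C57Bl/6J mice on HFHS diet held 244.9 against 462.9 to 493.7, and a library of hypothalamic Tconv from C57Bl/6J mice on SD held 2313 against 4634 to 4947. For Id3, 1 library of hypothalamic Tconv from C57Bl/6J mice on HFHS diet held 4.7 where the others held 0.

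The effect of a contrast differed between groups for Id2 in 2 interaction tests by edgeR. The log2 fold change of Tregs against Tconv in the rest of the brain differed between strains by -1.568, with an adjusted p-value of 0.014, and that of Balb/c against C57Bl/6J mice in Tconv differed between tissues by -0.9826, with 0.0030. Neither passed the threshold on log2(TPM + 1), as given above.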

How the results depend on the processing

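In all, 152 main values stayed within the margin set for them (1.5 times for a count of members called, 1 SD for a ratio) under an alternative setting and 25 moved further, beside the settings that leave out 1 library. Of the values of single members in this tally, 234 kept their direction and call (in the pilot, stayed within the counting interval or on the same side of 2-fold), 16 reversed, 15 lost their call, 7 gained one and 7 of the pilot values moved. The tally holds only part of the members and comparisons, so it does not count every turned sign. Where a value changed, the cause was not tested. Between Tregs and Tconv of the hypothalamus, 2 members were called. DESeq2 called 1, since it gave no adjusted p-value for Id2 at a log2 fold change of -3.10, limma-voom called 4, limma on log2(TPM + 1) called 3 with Tcf3 at -3.33, and Balb/c mice alone, SD alone, HFHS diet alone and the set without the 4 libraries low in Foxp3 each called 1, Id2. Of all 8337 genes, log2(TPM + 1) called 5077 in this comparison. Between tissues in Tconv, where 1 member was called, limma-voom called 3, Balb/c mice alone 2, limma on log2(TPM + 1) 2, and C57Bl/6J mice, SD and HFHS diet alone 0 each. With the pool as replicate block 0 were called there and 3 between cell types in the hypothalamus, and the block changed no other call. Between tissues in Tregs, limma-voom and limma on log2(TPM + 1) each called 1 where edgeR called 0, Tcf3 at -6.56 and -2.66. Of all 7247 genes, log2(TPM + 1) called 1813 there. Between strains in Tconv of the rest of the brain, SD alone called 0, HFHS diet alone 1 and log2(TPM + 1) 1 of the 2, and the genes called higher and lower in Balb/c mice shifted from 1438 and 1387 to 943 and 2101 with library totals and to 573 and 3947 on log2(TPM + 1). Among interactions, log2(TPM + 1) called 1 member, Tcf3, for cell type and tissue, among 2776 of 10845 genes, where edgeR called 0. It called 0 for cell type and strain, as library totals did with 0, and 0 for strain and tissue in Tconv, where edgeR called 1 each.

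Signs turned for differences that had not been called, and those in the tally come first. Tcf12 between cell types of the hypothalamus was -3.93 by limma-voom (adjusted p-value 0.046), -7.72 with the block, -4.05 in Balb/c mice, -4.79 on SD and -0.71 on log2(TPM + 1). In the rest of the brain Tcf3 was -0.061 by limma-voom, -0.22 with the block and -0.20 in C57Bl/6J mice, and Tcf4 was -1.92, -3.40 and -1.08 in the same order and -2.38 on SD. Id2 between tissues in Tconv was 0.29 in C57Bl/6J mice and 0.099 on log2(TPM + 1). With diet, Tcf12 was 0.76 in hypothalamic Tconv of Balb/c mice and Id2 -0.087 in Tconv of the rest of the brain of C57Bl/6J mice. Outside the tally, signs turned between tissues in Tregs. Tcf12, at 1.37 by edgeR, was -2.98 by limma-voom, -6.11 with the block, -2.89 in Balb/c mice and -3.83 on SD. Id3 there, at 0.94, was -0.94 by limma-voom, -0.69 with the block and -0.21 on log2(TPM + 1). Id3 with diet in hypothalamic Tconv, at -1.16, was 0.98 in Balb/c mice. Further turned signs are not listed. The median log2 ratio of Tcf12 to Tcf4 in hypothalamic Tconv was 5.38 with a pseudocount of 0.1 TPM and 2.82 with 1 TPM, and that of E proteins to Id factors without length scaling was -5.74 in hypothalamic Tconv and -5.90 in Tconv of the rest of the brain. In hypothalamic Tregs this ratio without length scaling was above 0 in 2 of 16 libraries, with 1.34 as the highest.

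Leaving out 1 library at a time kept 2 to 2 members called between cell types in both tissues, and gave 1 to 2 between tissues in Tconv, 0 to 0 in Tregs, 0 to 1 between strains in hypothalamic Tconv and 1 to 2 in Tconv of the rest of the brain. The gained calls were Tcf4 between tissues at -3.94 (adjusted p-value 0.038, without the C57Bl/6J HFHS hypothalamic library of pool 06_10) and Id2 between strains at -0.40 (0.040, without the C57Bl/6J SD hypothalamic library of pool 11_15). Tcf4 between cell types of the rest of the brain ranged from -0.69 to 0.38, and Tcf3 in the hypothalamus from -6.16 to -2.30. In hypothalamic Tregs, where Tcf4 had too few counts to be tested, 3 counts stood for 0.0799 to 1.549 CPM, against 0.1037 to 0.3312 CPM in the other sets, and lower levels were not detectable.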
